A study of Rattus norvegicus with 12 samples.

Results

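The Galnt genes encode polypeptide N-acetylgalactosaminyltransferases, the Golgi enzymes that begin mucin-type O-glycosylation by moving N-acetylgalactosamine from its UDP-linked donor onto serine or threonine of a protein. Other glycosyltransferases then extend or cap that first sugar. The enzymes differ in the peptides they prefer, and some of them act best on a peptide that already carries a sugar. O-glycans are abundant on mucins and on many cell surface and secreted proteins, and gliomas carry several such proteins, among them the hyaluronan receptor CD44.

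The list held 6 genes, Galnt1, Galnt2, Galnt3, Galnt7, Galnt10 and Galnt11, and 3 of them were among the 7620 genes and unnamed probes that passed the detection filter and were tested. They were chosen by name, with measured values of these same arrays in view, and Galnt2 and Galnt3 were set against the other members because their signals had been seen to be lower after treatment. Their differences between treated and control tumors are therefore given as a description, with no test. In the annotation used here 5 of the 6 genes had a named probe, 1 each, and Galnt1 was not analysed here. Galnt2, Galnt3 and Galnt10 were detected on all 12 arrays (detection p, the chance of such a signal on negative control beads, under 0.02). Galnt7 was detected on 9 of 12 and Galnt11 on 0 of 12.

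The tumors were xenografts of C6, an established rat glioma cell line, grown under the skin of the left flank of female athymic nude mice (host strain SWISS nu+/nu+). Treated mice received (R,R')-4-methoxy-1-naphthylfenoterol (MNF), an agonist of the β2-adrenergic receptor, at 2 mg/kg by intraperitoneal injection on 5 days a week over 19 days. Control mice received the vehicle alone, ascorbic acid in saline. The paper reports that in cultured C6 cells a β2 blocker left the growth inhibition by MNF in place. An inverse agonist of cannabinoid receptor 1 reduced that inhibition. Sick mice or those with large tumors could be killed before the end, and the labels do not say which were. Each treatment had 6 tumors, replicates 1 to 3 from a first cohort of mice and 4 to 6 from a second, hybridized 1 to an array on rat bead arrays. The model is 1 cell line in a host without functional T cells, the pieces can hold host mouse cells, and the part of mouse RNA in the signals of the rat probes was not tested.

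All 8 C6 glioma markers with a probe (of 9 listed) were detected on every array, while 4 of 6 macrophage, 3 of 4 endothelial and 2 of 4 fibroblast markers with a probe were detected on none. The others of those lists, Cd68, Cd14, Cldn5, Col1a1 and Col1a2, were detected on every array. Host cells are mouse and the probes rat, so a marker detected on no array does not show that its cells were absent. Mean signal per array was 500 to 858 in MNF-treated tumors and 708 to 1062 in vehicle-treated tumors, so deposited signals of the groups are not on an equal footing. Values below are log2 signals after Z-normalization, on a scale where 0 is the mean of an array's detected probes and 1 unit is about a doubling. A probe's level is not set against that of another probe. In such bulk samples, fewer cells of a type and less RNA per cell cannot be told apart.

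Galnt2 and Galnt3 had lower means in MNF-treated tumors. Relative to the vehicle mean of the same cohort, Galnt2 lay at -0.61 to -0.25 in MNF-treated and -0.21 to 0.37 in vehicle-treated tumors. Galnt3 lay at -0.83 to -0.03 in MNF-treated and -0.08 to 0.15 in vehicle-treated tumors. The pair was chosen on this contrast, so nothing is read from these ranges. Over both cohorts Galnt10 had about equal means and Galnt7 a slightly higher mean with MNF, though Galnt10 stood lower, at -0.17 (SE 0.14) after neqc background correction and at -0.10 (SE 0.08) in the authors' processed scores. Galnt2, known in humans and rodents for its link to blood lipids, had deposited signals of 322, 455 and 426 in MNF-treated tumors of cohort 1 and 606, 460 and 665 in those of cohort 2. In vehicle-treated tumors it had 840, 703 and 1038 in cohort 1 and 822, 755 and 705 in cohort 2. Every treated tumor lay below every vehicle-treated tumor on this scale, as for 1.86% of all genes tested.

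After normalization, Galnt2 lay at -0.66, -0.81 and -0.74 in MNF-treated tumors of cohort 1 and at -0.41, -0.35 and 0.17 in vehicle-treated tumors of that cohort. In cohort 2 it lay at -0.36, -0.55 and -0.48 in MNF-treated tumors and at -0.11, 0.02 and -0.25 in vehicle-treated tumors. The treatments did not overlap within cohort 1 or within cohort 2, but over both cohorts MNF tumor 4 stood just above vehicle tumor 1. The mean was -0.60 ± 0.17 with MNF and -0.15 ± 0.22 with vehicle (SD, n = 6 each), a difference of -0.44 (SE 0.11), or 0.735 times the vehicle signal.

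Galnt3, known in humans and mice for protecting the phosphate hormone FGF23 from cleavage, had deposited signals of 812, 831 and 1027 in MNF-treated tumors of cohort 1 and 890, 821 and 1159 in those of cohort 2. Vehicle-treated tumors gave 2025, 1485 and 1623 in cohort 1 and 1760, 1695 and 1596 in cohort 2. As for Galnt2, deposited signals of the treatments did not overlap.

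Normalized, Galnt3 lay at 0.75, 0.07 and 0.54 in MNF-treated tumors of cohort 1, against 0.83, 0.71 and 0.81 in vehicle-treated tumors. In cohort 2 it lay at 0.19, 0.32 and 0.31 with MNF, against 0.95, 1.17 and 0.94 with vehicle. The groups were well apart in cohort 2 and overlapped in cohort 1, where MNF tumor 1 stood above vehicle tumor 2. The mean was 0.36 ± 0.25 with MNF and 0.90 ± 0.16 with vehicle (SD, n = 6 each), a difference of -0.54 (SE 0.12), or 0.688 times the vehicle signal.

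Neither gene kept all 6 treated tumors below all 6 vehicle-treated tumors after normalization, which 0.249% of the genes tested did. Scaling the arrays over all probes, in place of the detected ones, left no overlap for either gene, as for 0.538% of genes tested (41 of 7620), and moved the median difference of all genes to -0.05. Within cohort 1 alone, all 3 MNF tumors lay below all 3 vehicle tumors for 7.83% of genes, Galnt2 among them. Within cohort 2 alone this held for 7.1% of genes, Galnt2 and Galnt3 among them, and in both cohorts for 0.643%, with Galnt2 and without Galnt3. Since the pair was chosen on this contrast, nothing is read from these shares. Across all genes, 0% passed an adjusted p of 0.05 for MNF minus vehicle (limma, Benjamini-Hochberg), and 609 of 7620 had an unadjusted p under 0.05, 364 of them lower.

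**Figure D1:**
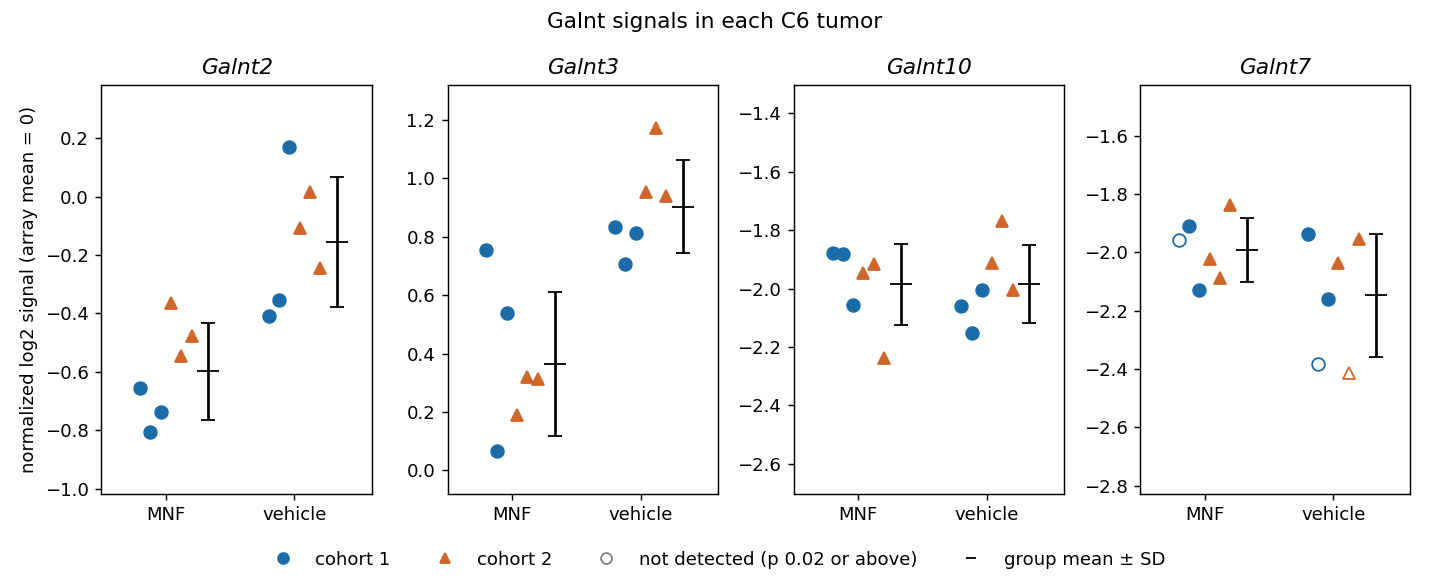
Normalized log2 signal (0 is the mean of an array's detected probes) of 4 Galnt genes in each tumor, MNF left of vehicle, with circles for cohort 1, triangles for cohort 2, open symbols for arrays where the probe was not detected and bars for the group mean ± SD (n = 6). Galnt2 and Galnt3 sit lower with MNF and touch the vehicle range through 1 tumor each, whereas Galnt10 and Galnt7 overlap widely.

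Galnt10, which acts mainly on peptides that already carry a sugar, had nearly equal means over both cohorts. It lay at -1.88, -1.88 and -2.06 in MNF-treated tumors of cohort 1, against -2.06, -2.15 and -2.01 with vehicle. In cohort 2 the values were -1.95, -1.92 and -2.24 with MNF and -1.91, -1.77 and -2.01 with vehicle. On this scale the treated tumors stood mostly higher in the first cohort and mostly lower in the second, with overlap in both. The pooled difference was 0.00 (SE 0.09), and -0.17 (SE 0.14) with neqc. Deposited signals in cohort 1 were mostly lower with MNF, at 145, 217 and 172 against 260, 197 and 229 with vehicle. MNF tumor 1, the array of lowest mean signal, had the lowest deposited and the highest normalized value of that cohort. Signals were weak, from 145 to 217 with MNF and from 197 to 260 with vehicle.

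Galnt7, another enzyme with a preference for glycosylated peptides, was detected in 5 of 6 MNF-treated and 4 of 6 vehicle-treated tumors, so its values come from the fit over all probes. It lay at -1.96 (not detected), -1.91 and -2.13 in MNF-treated tumors of cohort 1 and at -1.94, -2.38 (not detected) and -2.16 in vehicle-treated tumors. In cohort 2 the values were -2.02, -2.09 and -1.84 with MNF, against -2.04, -2.41 (not detected) and -1.95 with vehicle. The groups overlapped, and both of the lowest values belonged to vehicle arrays where the probe was not detected. The difference was 0.16 (SE 0.10), opposite in sign to those of Galnt2 and Galnt3. Its median deposited signal, however, was 178 with MNF and 206 with vehicle. The family genes Galnt5, Galnt9, Galnt17 and Galntl5, not above background on any array, also gave positive differences on the normalized scale, from 0.07 to 0.26. The sign for Galnt7 is therefore not read as a rise in RNA.

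Galnt11, which is known in humans and frogs for adding sugars to Notch1, was not above background on any array. Its deposited signal was 120 to 152 with MNF (detection p 0.032 to 0.27) and 126 to 185 with vehicle (detection p 0.053 to 0.176), and no fold is given.

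The same values were also laid out tumor by tumor, for Galnt2 with Galnt3 and for the other 2 measured members. Relative to the vehicle mean of the same cohort, the average of Galnt2 and Galnt3 was -0.66 to -0.25 in MNF-treated tumors and -0.12 to 0.20 in vehicle-treated tumors. The average of Galnt7 and Galnt10, both near background, was -0.02 to 0.22 in MNF-treated and -0.15 to 0.12 in vehicle-treated tumors. It includes Galnt7 values of MNF tumor 1 and vehicle tumors 2 and 5, where that probe was not detected. The first average lay below the second in 6 of 6 MNF-treated tumors, by 0.42 to 0.88, and in 3 of 6 vehicle-treated tumors, where the gap ran from -0.20 to 0.22. The vehicle gaps are centred on 0 within each cohort by construction, and the pair was chosen on this contrast. Nothing is therefore read from the ranges of the gap, which did not overlap between treatments.

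**Figure D2:**
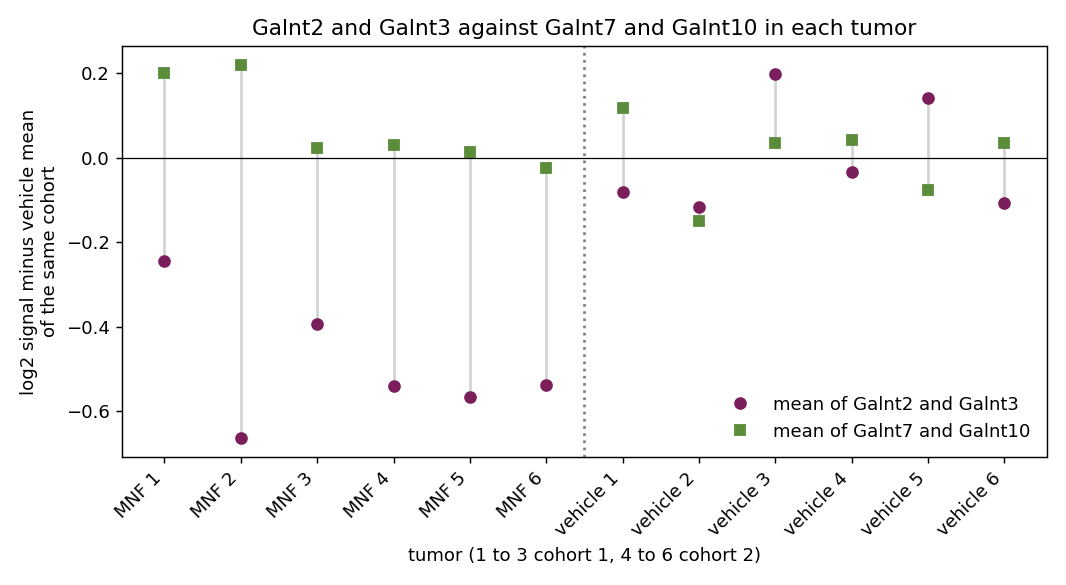
Normalized log2 signal minus the vehicle mean of the same cohort for each of the 12 tumors, MNF left of vehicle, with circles for the average of Galnt2 and Galnt3 and squares for the average of Galnt7 and Galnt10. The gap is widest in MNF tumor 2, at -0.88, and narrowest among treated tumors in MNF tumor 3, at -0.42. Squares include Galnt7 values of MNF tumor 1 and vehicle tumors 2 and 5, where it was not detected.

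Measured from the vehicle mean of its own cohort, the treated tumor with the largest deficit was MNF tumor 2 for Galnt2 and MNF tumor 4 for Galnt3, although MNF tumor 2 had the lowest normalized signal for both. MNF tumor 1 was 0.46 below its cohort's vehicle mean for Galnt2 and only 0.03 below it for Galnt3. MNF tumor 4 was 0.25 below for Galnt2, the smallest deficit of the 6, and 0.83 below for Galnt3, the largest. MNF tumor 2 was low for both, at -0.61 for Galnt2 and -0.72 for Galnt3.

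The values within each cohort mirrored this. Galnt2 differed by -0.54 (SE 0.15) in cohort 1 and by -0.35 (SE 0.15) in cohort 2. Galnt3 differed by -0.33 (SE 0.16) in cohort 1 and by -0.75 (SE 0.16) in cohort 2. Galnt10 gave 0.13 (SE 0.12) in cohort 1 and -0.14 (SE 0.12) in cohort 2, and Galnt7 gave 0.16 and 0.15 (SE 0.15 each).

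Whether the MNF change itself differed between cohorts was tested as an interaction, a contrast other than the one the genes were singled out on, although values of the same arrays had been seen. The MNF change in cohort 2 minus that in cohort 1 was -0.42 for Galnt3 (SE 0.22, limma adjusted p = 0.56) and 0.19 for Galnt2 (SE 0.21, adjusted p = 0.76). It was -0.27 for Galnt10 (SE 0.17, adjusted p = 0.59) and -0.01 for Galnt7 (SE 0.21, adjusted p = 0.98). None passed the test, and errors of this size leave room for sizeable differences in either direction. Over all genes 0% passed (limma), with 711 at an unadjusted p under 0.05.

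The cohort comparison, with both treatments in the fit, gave no member past the threshold. Cohort 2 minus cohort 1 was 0.18 for Galnt2 (SE 0.11, limma adjusted p = 0.68), 0.03 for Galnt3 (SE 0.12, adjusted p = 0.96), 0.04 for Galnt10 (SE 0.09, adjusted p = 0.92) and 0.02 for Galnt7 (SE 0.10, adjusted p = 0.95). Among MNF-treated tumors the same difference was 0.27 for Galnt2 and -0.18 for Galnt3. Among vehicle-treated tumors it was 0.08 for Galnt2 and 0.24 for Galnt3 (SE 0.15 to 0.16 throughout). Across all genes 0% passed the cohort test (limma), with 583 at an unadjusted p under 0.05.

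**Figure D3:**
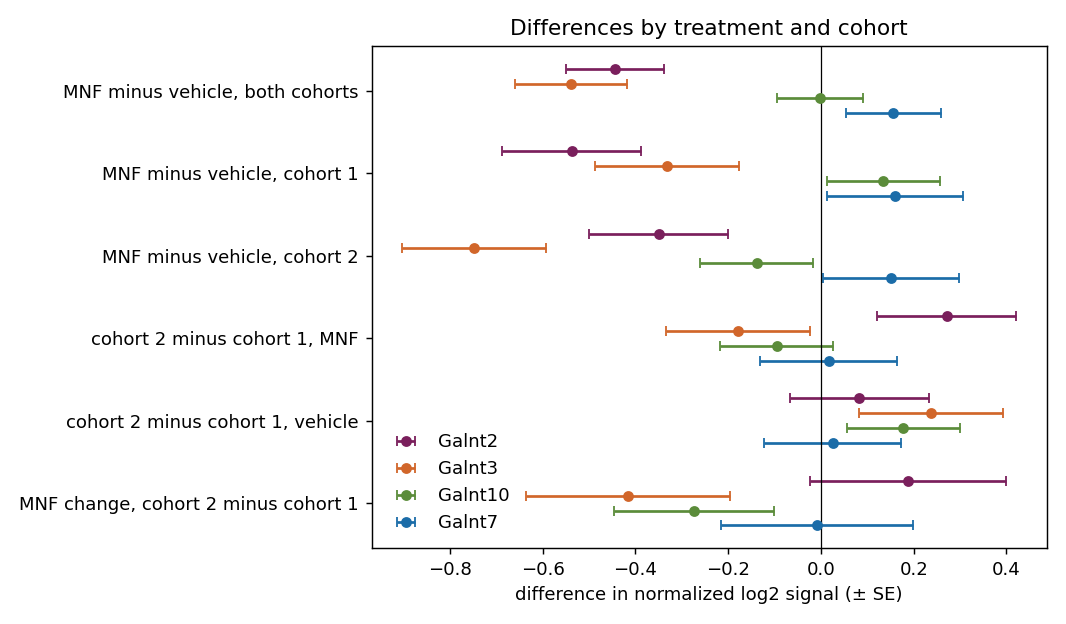
Differences in normalized log2 signal, as estimates ± SE, for Galnt2, Galnt3, Galnt10 and Galnt7, by treatment over both cohorts and in each, by cohort in each treatment, and for the MNF change of cohort 2 minus that of cohort 1. For treatment, Galnt2 and Galnt3 lie left of 0 in both cohorts, and Galnt10 lies right of 0 in cohort 1 and left of it in cohort 2.

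Members were next compared for how they varied between tumors of 1 treatment and cohort, after subtraction of each group's mean. Galnt2 and Galnt3 had Pearson's r = 0.29 over 12 tumors (exact permutation p = 0.149, adjusted p = 0.47 over 6 pairs) and Spearman's rho = 0.20 (exact permutation p = 0.48, adjusted p = 0.59). Without vehicle tumors 1 and 3, which lay farthest out for Galnt2, r was 0.50. The other 5 pairs had r from -0.32 to 0.38 and exact permutation adjusted p from 0.47 to 0.84, two-sided. No pair of members was shown to vary together beyond the treatment.

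Among the other 5509 named genes, those most like Galnt2 in this residual variation were L3mbtl2 (r = 0.84), Cacfd1 (r = 0.81) and Trerf1 (r = 0.80), over 12 tumors. Those most like Galnt3 were Orai1 (r = 0.96), Gpx4 (r = 0.95) and Tmem160 (r = 0.94). These are the highest of many correlations over few tumors that share arrays and are given with no p. MNF minus vehicle was -0.06 (SE 0.11) for L3mbtl2, 0.27 (SE 0.09) for Cacfd1 and 0.08 (SE 0.09) for Trerf1. It was 0.04 (SE 0.10) for Orai1, 0.33 (SE 0.16) for Gpx4 and 0.01 (SE 0.13) for Tmem160. None of the 6 had a lower mean with MNF by more than its SE, while Cacfd1 and Gpx4 had higher means by more than theirs.

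Of 15 other Galnt family genes listed, 7 had a named probe and 1, Galnt13, was detected on every array. Galnt13, a relative of Galnt1 found mainly in nervous tissue, had 143 to 190 units of deposited signal with MNF and 150 to 247 with vehicle, and its normalized difference was 0.05 (SE 0.09, limma adjusted p = 0.93). Galnt18 was detected on 9 arrays and Galnt16 on 8, with normalized differences of 0.04 (SE 0.13) and 0.15 (SE 0.12) in the fit over all probes. Galnt5, Galnt9, Galnt17 and Galntl5 were not above background on any array, so their differences, given beside Galnt7, are not read as changes in RNA.

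Genes of the steps around the first sugar were counted next, with 0% of all genes passing the test as the background for every list. Of 21 enzymes listed that extend or cap the first sugar, 14 had a probe and 5 were detected on every array, with 0 passing in either direction, 3 below and 2 above 0 and a median of -0.05. The median over all genes was 0.00, with 49.8% below 0. C1galt1, which adds galactose to make core 1, differed by 0.02 (SE 0.21, limma adjusted p = 0.99), and its chaperone C1galt1c1 by -0.12 (SE 0.16, adjusted p = 0.88). St3gal4, a sialyltransferase, had the smallest p of the list and differed by -0.13 (SE 0.13, adjusted p = 0.83), with 0.14 (SE 0.16) in cohort 1 and -0.41 (SE 0.16) in cohort 2 (interaction -0.55, SE 0.23, limma adjusted p = 0.53). The sialyltransferase St6galnac4, detected on 11 arrays, differed by -0.05 (SE 0.10), and St3gal1 was detected on only 2.

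Genes that supply nucleotide sugars had 13 of 22 members tested, 0 passing, 6 below and 7 above 0, and a median of 0.03. Gfpt1, which commits fructose-6-phosphate to hexosamine synthesis, differed by -0.03 (SE 0.10, limma adjusted p = 0.96), and Uap1, which makes UDP-N-acetylhexosamines, by 0.03 (SE 0.11, adjusted p = 0.96). Slc35b1, a nucleotide transporter of the endoplasmic reticulum, differed by 0.16 (SE 0.09, adjusted p = 0.69).

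Other kinds of O-glycosylation had 11 of 25 genes tested, 0 passing, 6 below and 5 above 0, and a median of -0.09. Ogt, which adds N-acetylglucosamine to nuclear and cytosolic proteins, differed by 0.03 (SE 0.09, limma adjusted p = 0.96) and Oga, which removes it, by 0.22 (SE 0.12, adjusted p = 0.69). Pomt1, which begins O-mannosylation, differed by 0.03 (SE 0.09), and Xylt2, which begins glycosaminoglycan chains, by -0.09 (SE 0.11).

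For N-glycan processing 8 of 17 genes were tested, with 0 passing, 6 below 0 and a median of -0.08. B4galt2, a galactosyltransferase, differed by -0.14 (SE 0.07, limma adjusted p = 0.66), while Mgat1 was detected on 7 arrays and Man2a1 on 0. For Golgi structure and retention 13 of 22 were tested, with 0 passing, 6 below and 7 above 0, and a median of 0.03. The Golgi matrix proteins Golga2, Gorasp2 and Golga5 differed by 0.19 (SE 0.12), 0.03 (SE 0.10) and 0.17 (SE 0.08), with limma adjusted p from 0.65 to 0.96. Golga5 was named for having the smallest p of its list.

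Proteins known to carry mucin-type O-glycans had 20 of 36 genes tested, 0 passing, 11 below and 9 above 0, and a median of -0.04. Spn, the leukocyte sialomucin CD43, differed by -0.33 (SE 0.15, limma adjusted p = 0.61), Notch1 by -0.28 (SE 0.20, adjusted p = 0.77), Cd44 by -0.12 (SE 0.15, adjusted p = 0.88) and the sialomucin Podxl by -0.03 (SE 0.17, adjusted p = 0.97).

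Markers of skeletal muscle varied widely between tumors. Of 10 listed, 9 had a probe, of which Acta1, Myl1 and Tnnc2 were detected on every array, Tnnt3, Myl11 and Ckm on 8 to 10, and Actn3, Mb and Myh4 on 0. The mean of Acta1, Myl1 and Tnnc2 was -1.75 to 5.51 with MNF (median 2.79) and -1.92 to 3.95 with vehicle (median -0.45). Acta1 differed by 1.66 (SE 1.08), Myl1 by 1.86 (SE 0.79) and Tnnc2 by 1.97 (SE 0.88) between treatments, with limma adjusted p from 0.61 to 0.73. Between cohorts they differed more, with cohort 2 minus cohort 1 at 3.13 (SE 1.08), 3.25 (SE 0.79) and 3.40 (SE 0.88) in the same order and limma adjusted p from 0.52 to 0.60. The mean of Hbb and Hba-a1, the hemoglobin probes detected on every array, was 2.85 to 5.80 with MNF and 1.86 to 4.30 with vehicle, and its part in the Galnt values was not tested.

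With the muscle mean as a covariate, MNF minus vehicle was -0.47 (SE 0.12) for Galnt2 and -0.61 (SE 0.13) for Galnt3. It was -0.01 (SE 0.11) for Galnt10 and 0.21 (SE 0.12) for Galnt7. Cohort 2 minus cohort 1 was then 0.13 (SE 0.15) for Galnt2 and -0.10 (SE 0.16) for Galnt3. The muscle genes had higher means with MNF and in cohort 2, so these fits do not fully separate muscle from treatment or cohort. Within treatment and cohort, Galnt3 followed the muscle mean with Pearson's r = 0.62 over 12 tumors (exact permutation p = 0.090, adjusted p = 0.36 over 8 relations) and Spearman's rho = 0.61 (exact permutation p = 0.115, adjusted p = 0.31), and r was 0.50 without MNF tumor 2 and vehicle tumor 4. For Galnt7 r was -0.32 and for Galnt10 0.26 (exact permutation adjusted p = 0.64 each). For Galnt2 r was 0.09 (exact permutation adjusted p = 0.78) and rho 0.08 (exact permutation adjusted p = 0.83), and r was 0.04 without the same tumors. With an array's mean log2 signal, Galnt3 had r = -0.63 (exact permutation p = 0.21, adjusted p = 0.42) and rho = -0.41 (exact permutation adjusted p = 0.46), and r was -0.06 without MNF tumors 1 and 2. Galnt7 had r = 0.49 (exact permutation p = 0.081, adjusted p = 0.36) and rho = 0.57 (exact permutation p = 0.050, adjusted p = 0.31), and r was 0.70 without those arrays. Galnt10 had r = -0.49 (exact permutation p = 0.187, adjusted p = 0.42) and rho = -0.60 (exact permutation p = 0.082, adjusted p = 0.31), and r was -0.67 without them. None of the relations passed the correction.

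**Figure D4:**
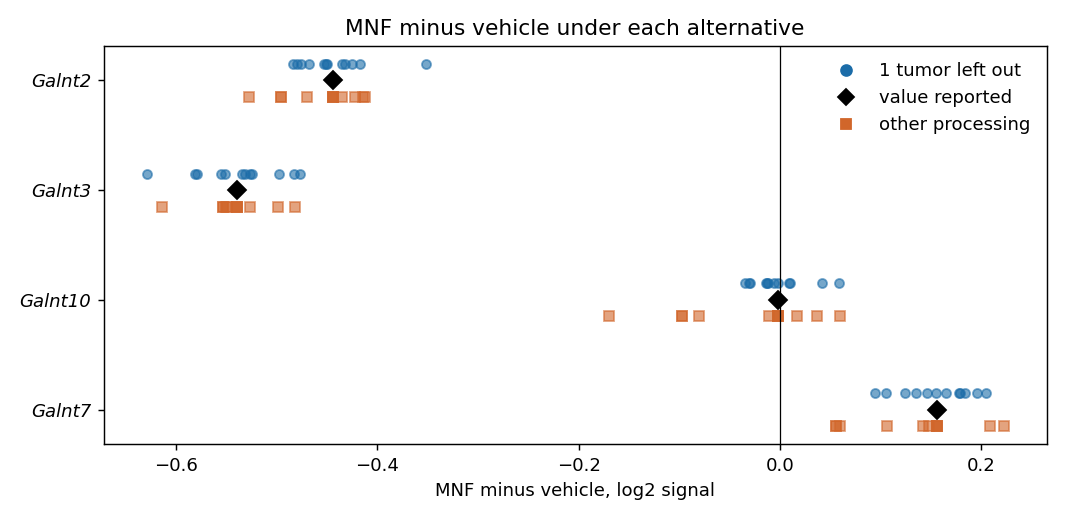
MNF minus vehicle in log2 signal for Galnt2, Galnt3, Galnt10 and Galnt7, with diamonds for the reported value, circles for fits with 1 tumor left out and squares for other processing. Galnt2 ranges from -0.53 to -0.35 and Galnt3 from -0.63 to -0.48, while Galnt10 falls on both sides of 0 and Galnt7 runs from 0.06 to 0.22.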

How the data were processed

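RNA of 12 tumors was measured on Illumina RatRef-12 BeadChips. The authors deposited, per array, the signal intensity and detection p-value of 22517 probes, exported by GenomeStudio 1.6.0 according to the processing notes of the submitters, with signals from 60.1 upward. They also deposited processed scores for 11080 probes, which are the Z-scores of log10 intensity per array, blank where a probe was detected on no array (largest deviation 0.0124, column medians 0.174 to 0.36). Gene symbols came from the platform annotation, with 1 symbol for 13259 probes and none here for 9258. No symbol changed through its Entrez identifier.

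The deposited intensities were taken to log2. The 7677 probes detected (p under 0.02) on all arrays set each array's mean and SD. Log2 values were centred on that mean, divided by that SD, and brought back to log2 units with the average of the 12 SDs. The brightest probe of each gene was kept, giving 5510 named genes and 2110 unnamed probes. limma 3.58.1 in R 4.3.3 fitted treatment and cohort, and treatment by cohort for interactions and within-cohort values, with moderated errors and Benjamini-Hochberg adjustment over all 7620. Members outside this set were read from a fit over all 22236 genes and probes with the same scaling. The fits were tested on simulated data. Correlations used group-centred values and all 1296 rearrangements within the 4 groups, two-sided. Precision is limited by the number of arrays.

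The members and lists were chosen with earlier results of these data known. Text names the members, the other family genes, a few preset genes and the gene of smallest p per list, muscle genes, and the 3 genes most like Galnt2 and Galnt3. Replicates were tumors described as independent biological samples. One description of the treatment in the paper gives another length and vehicle than the labels, which are followed here. Alternatives covered scaling, background correction, filters, covariates, weights and left-out tumors.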

Additional observations from a re-analysis of the deposited data

Results flagged for a closer look

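In 74 groups of 6 tumors (the genes named above, by treatment), 7 had a highest or lowest tumor set apart from the others by more of the range than Dixon's limit allows, and chance gives about 1 in 20 of such groups. No Galnt2, Galnt3, Galnt7 or Galnt10 value was among them. MNF tumor 1 was high for Galnt18 at -1.41, with the nearest at -2.04. MNF tumor 3 was low for Gorasp2 at 2.33, with the nearest at 2.72. Vehicle tumor 5 was low for Cd44 at 1.07 (nearest 1.64) and high for Tmem160 at 1.07 (nearest 0.83). Vehicle tumor 2 was high for Pomt1 at -1.77, vehicle tumor 4 for St3gal4 at 0.90 and vehicle tumor 6 for Ogt at -0.98.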

How the results depend on the processing

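MNF minus vehicle stayed negative in all 24 alternatives for Galnt2 and Galnt3 and positive in all 24 for Galnt7. Other filters left each gene's values as they were, and in this balanced design dropping cohort or adding a replicate block cannot move the difference. The authors' processed scores nearly repeated scaling over all probes (-0.50 for Galnt2 in both). The 24 are therefore not separate checks, and the pair was chosen on this contrast. No cohort or interaction value of a member passed an adjusted p of 0.05 in any alternative. Galnt10, with a reported difference of 0.00 (SE 0.09), had no sign to keep. It ran from -0.17 with background correction by neqc to 0.06 with median centring. Leaving out 1 tumor gave -0.48 to -0.35 for Galnt2, the smallest without vehicle replicate 3, and -0.63 to -0.48 for Galnt3. The interaction of Galnt2 was 0.00 without vehicle replicate 3, and that of Galnt3 was -0.61 without MNF replicate 2 and -0.26 without MNF replicate 1. Genes called for MNF minus vehicle stayed at 0 with every tumor left out. For the cohort comparison they were 0 to 46, the 46 without vehicle replicate 4, and 31 with array quality weights, and for the interaction 0 to 50, the 50 without vehicle replicate 6. With an unadjusted p under 0.05 the counts were 609 for MNF minus vehicle, 583 for cohort and 711 for the interaction. The cause of these moves was not tested.

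Nothing in the labels pairs tumors of the same number, and deviations of same-numbered tumors from their group means correlated at -0.19 to 0.38. With a replicate block 0 genes were called, and the block changed no call. Each number holds 1 tumor of each treatment, so the block could not move MNF minus vehicle, only its SE. The values with it were -0.44 (SE 0.11) for Galnt2, -0.54 (SE 0.12) for Galnt3, 0.00 (SE 0.10) for Galnt10 and 0.16 (SE 0.11) for Galnt7. No block for BeadChip could be fitted because the column names give none, and no other probe of a member was named. Galnt11, not above background throughout, and Galnt7, Galnt10 and Galnt13, near it, are limited by weak signal. Differences of such probes may understate changes in RNA or miss their sign. Family probes detected on no array stood 0.07 (Galnt17) to 0.26 (Galntl5) higher with MNF after the same scaling.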
